A study of Mus musculus with 12 samples.

Results

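The 3 libraries described here came from mouse cells kept for 24 h with PBS, phosphate-buffered saline, which serves as the vehicle in a study of 12 libraries. The cells are called TAMC under the cell line tag, a name that the labels do not spell out, and are given as immune cells of marrow. The members were chosen by their label alone, as all libraries with the treatment PBS, which is 3 of 12. The other 9 libraries, 3 each for the treatments NP-D@MP, NP-D@M and NP@M at the same time point, are used only where a library is set beside its group mates. Strain, age and sex of the source animals, and whether the 3 libraries stem from separate cultures or animals, are not given in the sources used here, so the spread between them may be technical. The protocol for RNA extraction names retinas as its source, which goes against the tissue label. Of 14 retina markers looked for, 1 had a row among the genes analysed, Sag, the rod arrestin, at 0.00979, 0.0324 and 0 FPKM in replicates 1, 2 and 3.

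Myeloid cells arise in marrow from progenitors that branch into granulocytes, which carry preformed granules of enzymes and antimicrobial proteins, and into monocytes, which mature into macrophages. Macrophages engulf and digest particles in lysosomes, recycle iron, present antigen and release cytokines and chemokines. In tumours, immature and suppressive forms of both branches are known to consume arginine through arginase and to display PD-L1, the ligand that holds back T cells through the receptor PD-1. The account below ranks all protein-coding genes by their mean over the 3 PBS libraries and describes which of these programs were present, with no comparison between treatments. Levels are read as FPKM, counts of fragments divided by gene length and by a scaled library size. Levels of different genes can thus be set side by side. Values of a gene are given in the order of replicates 1, 2 and 3, and means are given ± SD over n = 3 libraries. Ranks are counted from the highest mean downwards.

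The table held 10185 protein-coding genes, of which 7242 (71.1%) had a mean of at least 1 FPKM, 1944 (19.1%) of at least 10 and 190 (1.87%) of at least 100. The level was reached in every library by 6283, 1375 and 118 genes. The median of the means was 2.67 FPKM, the background against which the levels of gene lists are read. No source used here says how the genes of the table were selected, so ranks hold within it. The reads recovered from the values numbered 14708308, 16184107 and 14444950. A count of 0 allows up to 3 reads, for example 0.0107 FPKM for Sag in replicate 3, for counting error only.

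PBS replicate 3 stood apart from the other 2 libraries. On log2(FPKM + 1) over the 10185 protein-coding genes, Pearson's r was 0.995 between replicates 1 and 2, 0.874 between 1 and 3 and 0.901 between 2 and 3, given as a description across genes, which are not independent replicates. Of the 7242 genes with a mean of at least 1, 4 differed more than 2-fold between replicates 1 and 2 (0.0552%), against 1555 (21.5%) between 1 and 3 and 1073 (14.8%) between 2 and 3. A listed value of 0 was found for 136, 132 and 561 protein-coding genes in replicates 1, 2 and 3. Among the 1014 genes with a mean of at least 20, replicate 3 lay more than 2-fold above the mean of the other 2 for 79 and below it for 288. With the 3 libraries scaled to equal sums these counts were 138 and 214. The spread of most genes below is therefore the distance of replicate 3 from a close pair, and means without it are given for genes with a mean of at least 1 FPKM where they differ by more than 1.5-fold. Only genes higher in replicate 3 can meet this rule, since leaving out 1 of 3 libraries cannot raise a mean more than 1.5-fold. For genes lower in replicate 3, the lack of a second mean does not show a steady level.

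**Figure D1:**
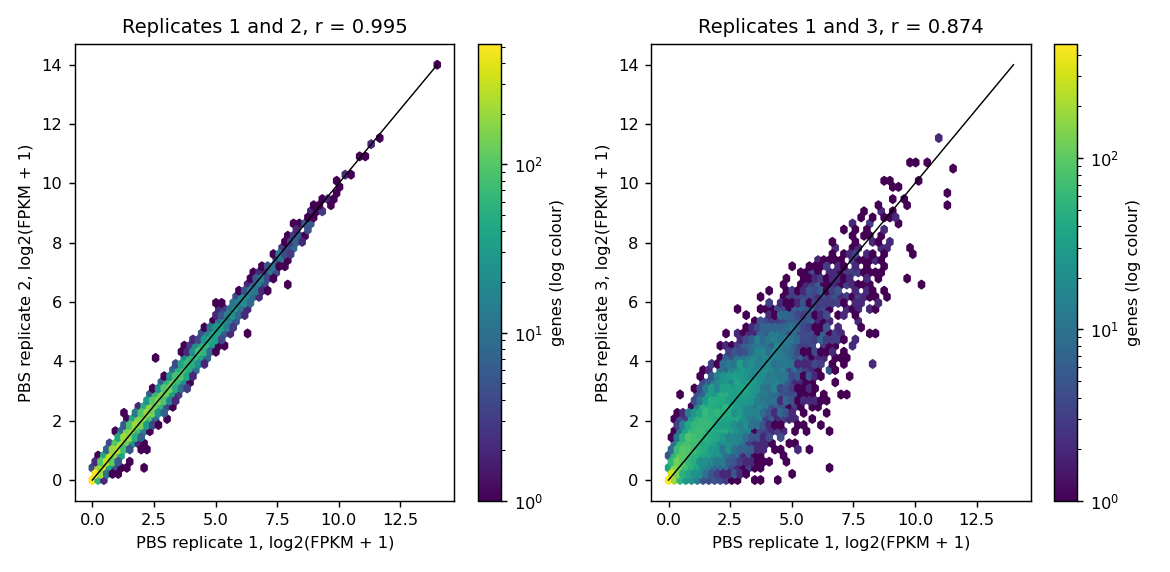
Level of each protein-coding gene in pairs of PBS libraries, as log2(FPKM + 1) on both axes, with replicate 1 on the horizontal axis and replicate 2 (left) or replicate 3 (right) on the vertical axis. Colour is the number of genes in each hexagon on a log scale and the line marks equal values. The cloud hugs the line on the left (r = 0.995) and is wide on the right (r = 0.874), with many genes of high level lying below the line.

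The distance of replicate 3 ran with base composition and gene length. Across 5 bins of equal gene number, with median transcript GC of 42.0%, 46.4%, 50.04%, 53.6% and 57.7%, its median log2 difference from the mean of replicates 1 and 2 was 0.63, 0.45, 0.13, -0.28 and -0.83. From the bin of the shortest to that of the longest genes, with median lengths of 1650 and 9544 bases, the median difference went from -0.82 to 0.62. Replicate 2 differed from replicate 1 in the same order but less, from 0.14 in the lowest to -0.09 in the highest GC bin. By bin medians, long genes and genes of low GC were thus higher in replicate 3, and short genes and genes of high GC lower. Genes were binned by each property apart, not by both at once. The part of these properties in the gene results below was not tested.

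**Figure D2:**
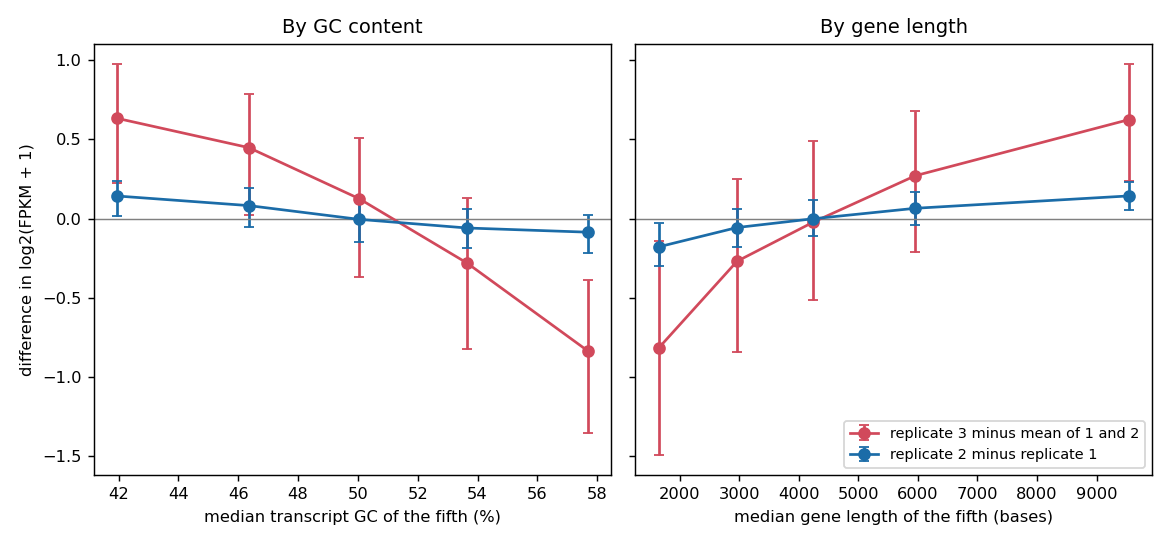
Median difference in log2(FPKM + 1) for 5 bins of genes by transcript GC in percent (left) and by gene length in bases (right), for genes with a mean of at least 1 FPKM. Points are bin medians and bars run from the lower to the upper quartile. Replicate 3 minus the mean of replicates 1 and 2 goes from 0.63 to -0.83 with GC and from -0.82 to 0.62 with length, while replicate 2 minus replicate 1 stays between -0.18 and 0.14.

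The highest genes encoded iron storage, lysosomal, chemokine and lysozyme products. Fth1, the ferritin heavy chain that stores iron, ranked first at 17041, 15842 and 8571 FPKM and held 11.1%, 11% and 7.03% of all protein-coding FPKM. Its partner Ftl1, the light chain, ranked 6 at 2599.6, 2404 and 582 FPKM. Both ferritin chains were lower in replicate 3 and close in the other 2 libraries, and both have processed copies in the genome that can share their reads. Ccl6, a chemokine of mouse myeloid cells, ranked 2 at 3224, 2855 and 1515 FPKM. Lyz2 (ENSMUSG00000069516, chr10:117277331-117282321, minus strand, GRCm38), the lysozyme of macrophages and granulocytes, ranked 3 at 2055, 1812 and 3138 FPKM, a mean of 2335 ± 706. Lyz2 was thus above 1000 FPKM in every library and highest in replicate 3.

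Proteins of the lysosome followed. Psap, the precursor of the saposins that help degrade sphingolipids, stood at 1914, 1907 and 2812 FPKM. Ctsd, the aspartic protease cathepsin D, stood at 2499, 2459 and 805 FPKM, and Ctsl, the cysteine protease cathepsin L, at 579, 620.3 and 998. Psap and Ctsl were highest in replicate 3 and Ctsd lowest there. Chil3, a chitinase-like secreted protein used as a marker of alternatively activated macrophages, ranked 8 at 922, 1059 and 1622 FPKM. Spp1, the secreted phosphoprotein osteopontin, stood at 661, 715 and 979 FPKM. Thbs1, the matrix protein thrombospondin, stood at 438, 555 and 1054 FPKM and Mmp8, the neutrophil collagenase, at 487, 539 and 1145. These 4 secreted products were highest in replicate 3, and without it Mmp8 ranked 24 and Thbs1 26 in place of 15 and 16.

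The rest of the 20 highest genes were mt-Co1 (a subunit of cytochrome c oxidase), the actins Actb and Actg1, Eef1a1 (an elongation factor of translation), Rplp1 (a ribosomal stalk protein), Ccl9, Pf4, S100a9 and Lgals3. Rplp1 had the widest spread of the 20, at 1279, 1304 and 100.5 FPKM. Eef1a1 had the narrowest, at 1176, 1186 and 1115 FPKM, although it has many processed copies and the actins share long stretches of sequence, so that reads may be split among them. The 10 highest genes held 21.1 ± 1.66% of protein-coding FPKM and 10.1 ± 1.65% of protein-coding reads, a lower share because FPKM weights short genes up. Of the 20 highest genes by the mean, 16, 17 and 17 were also among the 20 highest of replicates 1, 2 and 3. Of the 100 highest, 88, 92 and 74 were.

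**Figure D3:**
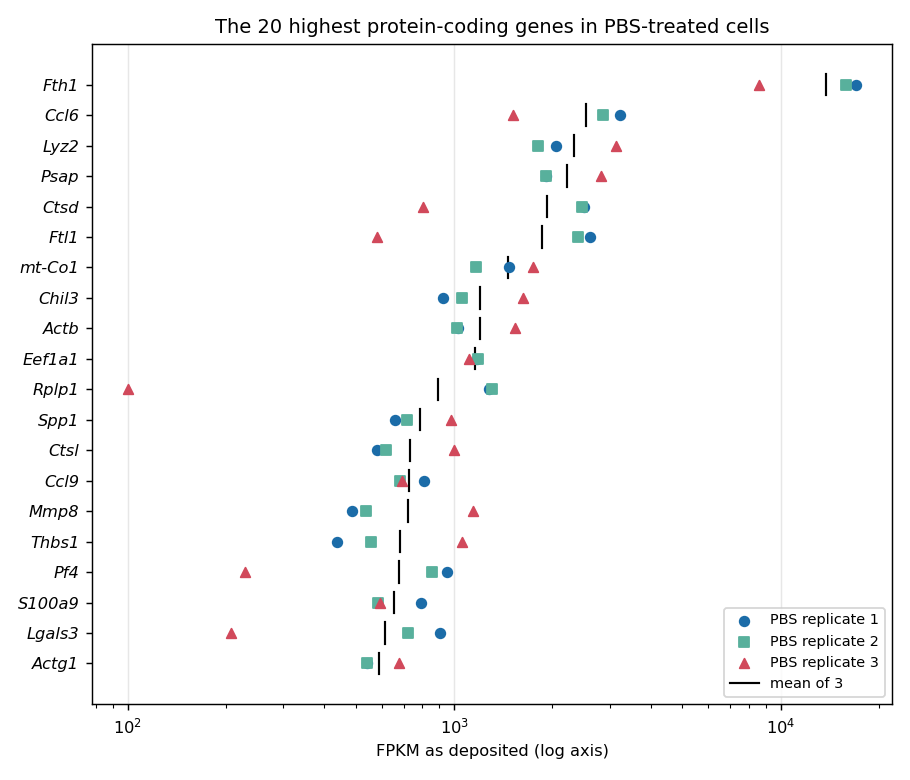
The 20 protein-coding genes with the highest mean in PBS-treated cells, with FPKM on a log axis. Symbols are the 3 libraries and the black bar is their mean. Fth1 lies above all others, and replicate 3 lies lowest for Rplp1, Ftl1, Ctsd, Pf4 and Lgals3 and highest for Lyz2, Mmp8 and Thbs1.

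Promoter sequence was looked up for these genes because the myeloid regulators PU.1 and AP-1 are known to act at such sites. Windows of up to 250 bases before the start come from RefSeq on GRCm38.p6, with 8072 of the 10185 protein-coding genes matched by symbol and 16 of the 20 highest. Each was searched on both strands for 4 motifs, none of which contains another. A match counted anywhere in the window, whatever its distance from the start. The core of a PU.1 site was written as GAGGAA. The site of the AP-1 dimer was written as TGANTCA, with N for any base. The box bound by the TATA-binding protein was written as TATAAA. The box bound by the factor NF-Y was written as CCAAT. The TATA letters were in 16.7% of the 138 matched promoters of genes at or above 100 FPKM and in 6.62% of all 8072, those of AP-1 in 9.42% and 4.48%, of PU.1 in 26.8% and 22.8%, and CCAAT in 35.5% and 36.8%. Spp1 and Ccl9 are shown as the 2 of the 20 highest genes with a TATA match, and Lyz2, Pf4, Ltf and Cd274 as lineage and checkpoint genes of the account. Capitals mark matches to any of the 4 motifs on either strand, so a match on the other strand appears as its reverse complement.
Spp1, chr5:104434861-104435110, plus strand: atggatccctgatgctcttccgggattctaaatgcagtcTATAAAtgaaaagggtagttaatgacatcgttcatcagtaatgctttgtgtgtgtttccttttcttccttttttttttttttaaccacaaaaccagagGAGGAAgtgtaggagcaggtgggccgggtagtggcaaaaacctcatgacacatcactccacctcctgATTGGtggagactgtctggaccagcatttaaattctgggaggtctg
Ccl9, chr11:83578637-83578886, minus strand: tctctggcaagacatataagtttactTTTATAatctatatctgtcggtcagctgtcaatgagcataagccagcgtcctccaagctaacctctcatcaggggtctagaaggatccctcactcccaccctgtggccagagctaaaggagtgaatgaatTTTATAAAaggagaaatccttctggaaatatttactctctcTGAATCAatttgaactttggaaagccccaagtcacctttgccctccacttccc
Lyz2, chr10:117282322-117282522, minus strand: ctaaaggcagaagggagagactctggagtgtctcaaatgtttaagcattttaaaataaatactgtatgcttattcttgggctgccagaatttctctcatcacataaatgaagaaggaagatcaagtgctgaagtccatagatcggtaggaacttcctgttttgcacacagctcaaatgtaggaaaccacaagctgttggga
Pf4, chr5:90772185-90772434, plus strand: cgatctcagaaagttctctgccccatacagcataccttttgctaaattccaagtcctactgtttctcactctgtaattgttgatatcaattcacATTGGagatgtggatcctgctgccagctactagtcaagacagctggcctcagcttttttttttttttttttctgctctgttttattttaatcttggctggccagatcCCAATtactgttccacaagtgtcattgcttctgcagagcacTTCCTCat
Ltf, chr9:111019042-111019270, plus strand: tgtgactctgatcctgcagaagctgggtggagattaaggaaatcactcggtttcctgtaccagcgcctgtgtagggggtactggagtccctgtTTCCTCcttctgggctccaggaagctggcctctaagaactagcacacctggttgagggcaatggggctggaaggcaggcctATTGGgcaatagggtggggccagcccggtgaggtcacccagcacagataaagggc
Cd274, chr19:29367188-29367437, plus strand: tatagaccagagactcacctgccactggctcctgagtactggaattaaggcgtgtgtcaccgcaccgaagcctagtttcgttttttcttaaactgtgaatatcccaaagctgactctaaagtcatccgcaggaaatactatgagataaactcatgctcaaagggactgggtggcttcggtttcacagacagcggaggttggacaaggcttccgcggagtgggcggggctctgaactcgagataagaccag

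The Spp1 window held 1 TATA, 1 PU.1 and 1 CCAAT match, the last on the other strand. Ccl9, a chemokine gene at 811, 682 and 691 FPKM, held 3 TATA matches, 2 of which overlap on opposite strands, and 1 AP-1 match. Pf4 held 1 PU.1 and 2 CCAAT matches, Ltf 1 of each, and the windows of Lyz2 and Cd274 held none of the 4 motifs. A match is a description of letters, and its absence says only that these letters are not in this window.

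Both macrophage and neutrophil genes were present at high levels. Of 20 monocyte and macrophage markers, all with a row, 17 of 20 were at or above 1 FPKM, 10 at or above 10 and 4 at or above 100, with a median of 10.9 FPKM. Cd14, the co-receptor for bacterial lipopolysaccharide, stood at 441, 461 and 336 FPKM. Cd68, a lysosomal membrane glycoprotein of macrophages, stood at 312, 309 and 163 FPKM. Adgre1, which encodes the F4/80 antigen, stood at 137, 159 and 320.2 FPKM. Adgre1 was highest and Cd68 lowest in replicate 3, and all 3 exceeded 100 FPKM in every library. Csf1r, the receptor for the macrophage growth factor CSF1, ranked 297 at 51.9, 58.4 and 89.7 FPKM. Mrc1, the mannose receptor, stood at 22.6, 28.6 and 92.6 FPKM, with a mean of 47.9 that was 25.6 without replicate 3.

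Genes that mark resident macrophages and blood monocytes were lower. Trem2, a lipid-sensing receptor of macrophages, stood at 32.4, 27.1 and 8.62 FPKM. The complement subunit gene C1qa stood at 10.8, 9.66 and 3.65 FPKM. Ccr2, the receptor of classical monocytes, stood at 0.576, 0.469 and 2.11 FPKM and Ly6c2, the Ly6C antigen, at 1.60, 0.450 and 5.46. Ccr2 and Ly6c2 were below 1 FPKM in replicate 2, while Trem2 and C1qa were lowest in replicate 3. The means of Ccr2 and Ly6c2 without replicate 3 were 0.523 and 1.03. Cx3cr1, the fractalkine receptor of patrolling monocytes and tissue macrophages, had 0, 1 and 0 reads, no more than the 3 that a count of 0 allows. The scavenger receptor genes Marco and Cd163 were also below 1 FPKM in every library.

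Of 20 neutrophil genes, 18 had a row, and 17 of 18 were at or above 1 FPKM, 11 at or above 10 and 6 at or above 100, with a median of 16.9 FPKM. The calprotectin subunit S100a9 stood at 792, 583 and 594 FPKM and its partner S100a8 at 389, 305 and 226. Lcn2, a siderophore-binding protein of secondary granules, stood at 333, 352 and 171 FPKM. Mmp9, the gelatinase of late granules, stood at 191, 198 and 216 FPKM and Ngp, a neutrophil granule protein, at 164, 115 and 118. All 5 were above 100 FPKM in every library, with S100a8 and Lcn2 lowest in replicate 3. Ltf (ENSMUSG00000032496, chr9:111019271-111042767, plus strand), the iron-binding lactoferrin of secondary granules, ranked 927 at 21.7, 14.3 and 28.9 FPKM, a mean of 21.6 ± 7.33. Ltf was lowest in replicate 2 and highest in replicate 3, and its rank without replicate 3 was 1198.

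Genes of primary granules, made early at the promyelocyte step, were lower than Lcn2, Ngp, Mmp8 and Mmp9. Elane, neutrophil elastase, stood at 10.6, 7.70 and 3.02 FPKM, Ctsg, cathepsin G, at 6.19, 4.42 and 3.25 and Mpo, myeloperoxidase, at 2.81, 1.62 and 0.924. These were lowest in replicate 3, and Mpo was below 1 FPKM there. Ly6g, the surface antigen that defines mouse neutrophils, ranked 1325 at 18.1, 12.4 and 15.9 FPKM. Cebpe, the regulator of secondary granule genes, stood at 48.2, 33.1 and 2.27 FPKM. Ly6g differed by less than 1.5-fold between the highest and lowest library, and Cebpe was far lower in replicate 3. In bulk RNA, fewer cells of a type and less RNA per cell cannot be told apart, so these levels do not give the shares of macrophages and neutrophils. The summed FPKM of the list was 2499, 2195 and 2576, against 3119, 2916 and 4221 for the monocyte and macrophage list, of which Lyz2 was the largest term.

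Of the megakaryocyte and platelet genes, 2 chemokines were high and the others with a row were below 10 FPKM. Pf4 (ENSMUSG00000029373, chr5:90772435-90773383, plus strand), platelet factor 4, a heparin-binding chemokine that myeloid cells can also make, ranked 17 at 951, 854 and 229 FPKM, a mean of 678 ± 392. Ppbp, the pro-platelet basic protein, stood at 256, 239 and 289 FPKM. Pf4 was lowest in replicate 3 and Ppbp was close in all 3 libraries. Of the 9 megakaryocyte and platelet markers with a row, of 10, 5 of 9 were at or above 1 FPKM, 2 at or above 10 and 2 at or above 100, with a median of 2.58 FPKM. The collagen receptor Gp6 stood at 0.00493, 0 and 0 FPKM, Gp9, a subunit of the von Willebrand factor receptor, at 0.0660, 0.0298 and 0 and Treml1, a platelet granule receptor, at 0.353, 0.355 and 0. All 3 were below 1 FPKM in every library and listed at 0 in replicate 3. Itga2b, the platelet integrin CD41, stood higher at 3.18, 3.05 and 2.08 FPKM, and Vwf, the adhesive protein of platelets and endothelium, at 4.81, 6.04 and 9.65. Itgb3, the partner chain of Itga2b, stood at 2.18, 2.39 and 3.17 FPKM. These 3 were above 1 FPKM in every library.

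Dendritic cell markers were mixed. Of 15, 13 had a row, and 9 of 13 were at or above 1 FPKM, 2 at or above 10 and 0 at or above 100, with a median of 4.71 FPKM, with 4 at or above 10 without replicate 3. Itgax, the CD11c integrin shared with macrophages, stood at 66.9, 73.8 and 87.5 FPKM. Ccl17, a chemokine of dendritic cells and macrophages, stood at 31.6, 25.2 and 5.11 FPKM and Ccr7, the lymph node homing receptor, at 10.5, 9.32 and 8.54. Ccl17 was lowest in replicate 3 while Ccr7 was close across libraries. The defining genes Flt3 (the progenitor cytokine receptor), Zbtb46 (a dendritic cell regulator) and Clec9a (a receptor of cross-presenting cells) were below 1 FPKM in every library, and Cd209a, a lectin, was so in replicates 1 and 2.

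Markers of lymphoid and non-blood cell types were below 10 FPKM where they had a row. For T and NK cells, 2 of 12 had a row, Cd4 at 0.173, 0.150 and 0.180 and Klrb1c at 0.0196, 0.0532 and 0.267 FPKM, with a summed level of 0.193, 0.203 and 0.447. For B cells 1 of 10 was a protein-coding gene with a row, Ms4a1, which encodes CD20, at 0.0235, 0.0424 and 0.143 FPKM. The immunoglobulin genes Igkc and Ighm of that list have rows of another biotype, with means of 2.55 and 2.12 FPKM. The fibroblast genes Sparc, Col1a2 and Col3a1, 3 of 10, summed to 0.113, 0.135 and 0.0505 FPKM, all below 0.1 in every library. Of 8 endothelial markers 5 had a row, and Pecam1, an adhesion molecule that leukocytes also carry, was highest at 4.07, 4.39 and 7.78 FPKM, while Cdh5, the endothelial cadherin, stood at 0.194, 0.168 and 0.0226. Of 10 epithelial and colon tumour markers 2 had a row, the adhesion molecule Cdh1 at 7.59, 7.08 and 9.20 FPKM and Epcam at 0.0855, 0.0514 and 0. Cdh1 was thus well above the defining epithelial gene Epcam in all 3 libraries. The markers with no row are not analysed here.

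Mast cell, eosinophil and progenitor genes stayed below 20 FPKM in every library. Of 10 mast cell and basophil markers 5 had a row, led by Gata2, a regulator of mast cells and progenitors, at 10.8, 10.3 and 2.46 FPKM, and by Hdc, the enzyme that makes histamine, at 8.92, 9.16 and 4.79. Of 7 eosinophil markers 3 had a row, with Ear2, a ribonuclease, at 4.12, 3.76 and 5.15 FPKM and Siglecf, a sialic acid receptor, at 3.48, 3.96 and 5.19. Both eosinophil genes were somewhat higher in replicate 3. Kit, the stem cell factor receptor, stood at 0.594, 0.586 and 0.610 FPKM, and Cd34, a progenitor surface antigen, at 2.06, 1.53 and 2.02. Of the 9 stem and progenitor markers with a row, 3 were at or above 1 FPKM, with a median of 0.597.

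**Figure D4:**
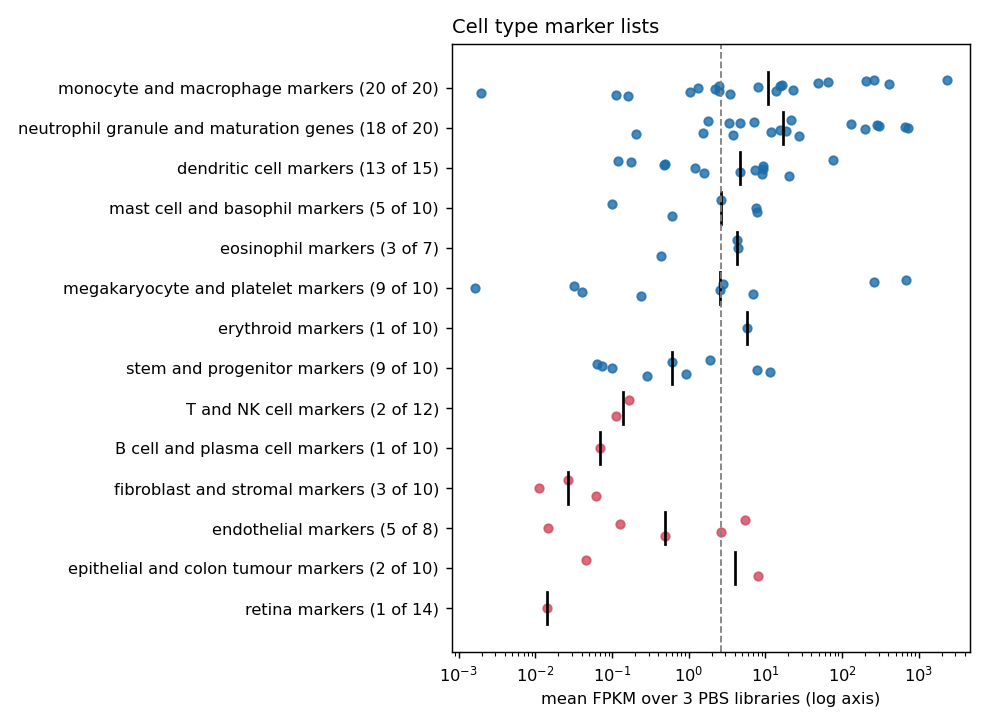
Mean FPKM over the 3 PBS libraries on a log axis for each marker that is a protein-coding gene with a row, by cell type. Brackets give the number of these markers and the list size. Blue lists are cell types of marrow, red lists are lymphoid and non-blood cell types, black bars are list medians and the dashed line is the median of all protein-coding genes (2.67 FPKM). The neutrophil, monocyte and macrophage, dendritic cell, eosinophil, erythroid and epithelial lists have medians above the dashed line. The last 3 of these rest on at most 3 genes each. The drawn genes of the T and NK cell, B cell, fibroblast and retina lists lie wholly below 1 FPKM. Igkc and Ighm of the B cell list, at means of 2.55 and 2.12 FPKM, have another biotype and are not drawn.

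Cebpb and Spi1 had the highest means of all transcription factor genes. Of the myeloid regulators, all 26 on the list had a row, and 25 of 26 were at or above 1 FPKM, 15 at or above 10 and 1 at or above 100, with a median of 16.4 FPKM. Cebpb, a regulator of granulocyte and macrophage genes, stood at 319.9, 302 and 14.05 FPKM. Spi1, which encodes PU.1, the master regulator of myeloid fate, stood at 111, 93.1 and 75.3 FPKM. Spi1 differed by less than 1.5-fold between libraries, whereas Cebpb, a gene of 1504 bases and GC 67.2%, was 22.1-fold lower in replicate 3 than the mean of the other 2. The AP-1 subunit genes followed, Fos at 52.3, 58.8 and 73.02 FPKM and Junb at 88.4, 80.1 and 12.2. Bhlhe40, a helix-loop-helix factor of activated immune cells, stood at 51.9, 55.1 and 46.9 FPKM, and Hif1a, the oxygen-regulated factor, at 21.2, 28.8 and 54.6. Junb was lowest and Hif1a highest in replicate 3, and Fos and Bhlhe40 differed by less than 1.5-fold across libraries. The granulocyte regulator Gfi1, below 1 FPKM in every library at 0.867, 0.930 and 0.496, was the lowest of the list. Over all 731 protein-coding transcription factor genes with a row, 409 were at or above 1 FPKM, 69 at or above 10 and 1, Cebpb, at or above 100. Cebpb reached 100 in replicates 1 and 2 only. Among all protein-coding genes, 71.1%, 19.1% and 1.87% reached these levels, so transcription factor genes reached them less often.

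Receptors that sense microbes and antibody were broadly present. Of 21 pattern recognition and Fc receptor genes with a row, 19 of 21 were at or above 1 FPKM, 16 at or above 10 and 4 at or above 100, with a median of 19.8 FPKM. Tyrobp, the DAP12 signalling adaptor, stood at 446, 394 and 67.6 FPKM and Fcer1g, the shared Fc receptor gamma chain, at 171, 159 and 72.4. Fcgr3, a low-affinity receptor for IgG, stood at 115, 113 and 229 FPKM and Fcgr2b, the inhibitory IgG receptor, at 55.6, 58.4 and 122. The adaptors Tyrobp and Fcer1g were lowest and the receptor chains Fcgr3 and Fcgr2b highest in replicate 3. Tlr2, the receptor for bacterial lipopeptides, stood at 53.3, 71.98 and 104 FPKM and Clec4d, a lectin that binds fungal and bacterial glycolipids, at 84.5, 82.2 and 100.4. The endosomal Tlr13, a sensor of bacterial ribosomal RNA, stood at 16.4, 22.2 and 83.8 FPKM, a mean of 40.8 that was 19.3 without replicate 3. Tlr8, of the same endosomal group, stood at 6.05, 9.23 and 55.2 FPKM, a mean of 23.5 that was 7.64 without replicate 3. Tlr3 and Tlr9, sensors of double-stranded RNA and of DNA, had means below 1 FPKM.

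Growth factor receptors were led by the shared chain for GM-CSF. The list of growth factor and cytokine receptor genes held 17 with a row, among them Il1rn, which is not a receptor. Of these, 17 of 17 were at or above 1 FPKM, 14 at or above 10 and 3, Il1rn included, at or above 100. Their median was 22.9 FPKM. Csf2rb, the common beta chain for GM-CSF, IL-3 and IL-5, stood at 392, 422 and 261 FPKM and its mouse paralog Csf2rb2, the IL-3 specific chain, at 179, 204 and 181, with reads that the pair may share. Il1rn, the secreted antagonist of IL-1, stood at 133, 153 and 206 FPKM and Tnfrsf1b, the second TNF receptor, at 74.4, 93.8 and 80.5. The alpha chain Csf2ra stood at 75, 74.97 and 15.1 FPKM. Csf2ra was lowest in replicate 3, Il1rn highest there, and Csf2rb2 and Tnfrsf1b were close across libraries. Ifngr1, the ligand-binding chain for interferon gamma, stood at 30.3, 29.1 and 74.96 FPKM, and its mean of 44.8 was 29.7 without replicate 3.

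Receptors for chemoattractants had a median of 30.1 FPKM over 12 genes, with 10 at or above 10. Fpr1, a receptor for formylated bacterial peptides, stood at 64.4, 85.2 and 165 FPKM and Fpr2 at 74.4, 80.05 and 164. Ccr1, a receptor for inflammatory CC chemokines, stood at 71.3, 73.5 and 152 FPKM. All 3 were highest in replicate 3, where the list's median log2 difference from the other 2 libraries was 1.07 (median GC 45.7%, median length 2940.5 bases). C3ar1, the receptor for the complement fragment C3a, stood at 39.05, 47.8 and 120.0 FPKM, a mean of 68.9 that was 43.4 without replicate 3. C5ar1, the receptor for C5a, was steadier at 37.9, 36.1 and 33.2 FPKM. Cxcr2, which guides neutrophils along CXC chemokines, stood at 11.1, 11.6 and 32.5 FPKM, a mean of 18.4 that was 11.4 without replicate 3.

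Chemokine genes were high as a list. Of 20 with a row, 19 of 20 were at or above 1 FPKM, 13 at or above 10 and 8 at or above 100, with a median of 50.1 FPKM, against 2.67 for all protein-coding genes. Besides Ccl6, Ccl9, Pf4 and Ppbp, the genes at or above 100 FPKM were Cxcl3, Ccl2, Ccl3 and Ccl7. Cxcl3, a neutrophil attractant, stood at 312, 308 and 125 FPKM. Ccl2, the main attractant of monocytes, stood at 187, 187 and 148 FPKM, and Ccl7, a second CCR2 ligand, at 88.3, 95.1 and 141. Ccl3, an inflammatory CC chemokine, stood at 195, 226 and 41.8 FPKM. Ccl3 and Cxcl3 were lowest in replicate 3 and Ccl7 highest, while Ccl2 stayed within 1.5-fold. Cxcl10, an interferon-induced attractant of T cells, was the lowest with a row at 0.323, 0.326 and 0.197 FPKM. Ccl5, another T cell attractant, stood at 10.8, 7.51 and 0.329 FPKM. The list's median log2 difference of replicate 3 from the other 2 libraries was -0.93 (median GC 45.7%, median length 1216 bases).

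Inflammatory cytokines ranged widely. All 20 cytokine and enzyme genes had a row, and 15 of 20 were at or above 1 FPKM, 8 at or above 10 and 2 at or above 100, with a median of 6.29 FPKM. Il1b, the precursor of IL-1 beta, ranked 370 at 34.6, 57.4 and 70.9 FPKM and Il1a at 32, 56.8 and 42.7. Tnf stood at 19.03, 26.5 and 9.45 FPKM and Il6 at 4.65, 5.87 and 4.60. Tgfb1, the suppressive cytokine TGF-beta 1, stood at 105, 104 and 18.2 FPKM and Vegfa, the vascular growth factor, at 26.5, 24.3 and 26.5. Tgfb1 and Tnf were lowest in replicate 3, Il1b was lowest in replicate 1 and Vegfa was close in all 3. Il10, a suppressive cytokine, stood at 0.0222, 0.0801 and 0 FPKM and Il12b, a subunit of IL-12 and IL-23, at 0.133, 0.413 and 0.0965. Nos2, the inducible nitric oxide synthase that competes with arginase for arginine, stood at 0.303, 0.202 and 0.860 FPKM. These 3 and Il23a were below 1 FPKM in every library.

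Genes of alternative activation included Chil3 and Arg1, of ranks 8 and 28. Of 15 with a row, 13 of 15 were at or above 1 FPKM, 8 at or above 10 and 4 at or above 100, with a median of 17.2 FPKM, or 10.5 without replicate 3. Arg1 (ENSMUSG00000019987, chr10:24915221-24927484, minus strand), the arginase that turns arginine into ornithine and urea, ranked 28 at 466, 402 and 449 FPKM, a mean of 439 ± 33.5. Arg1 was close across the 3 libraries, with rank 30 without replicate 3, and its level was more than 100-fold that of Nos2 in each. Retnla, a secreted resistin-like protein, stood at 282, 238 and 84.8 FPKM, and Fn1, the matrix protein fibronectin, at 237, 266 and 478. Mgl2, a galactose-binding lectin, stood at 64, 52.7 and 36.5 FPKM. Retnla and Mgl2 were lowest and Fn1 highest in replicate 3. Cd36, a scavenger receptor for lipids, stood at 7.96, 10.8 and 34.3 FPKM, a mean of 17.7 that was 9.41 without replicate 3. Cd163, of the same list, was below 1 FPKM.

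Feedback and signalling genes of NF-kB were all above 1 FPKM, 16 of 16, with a median of 14.5. Ier3, an early response gene, stood at 147, 132 and 60.8 FPKM and Nfkbia, the inhibitor I kappa B alpha, at 72.2, 71.1 and 55.8. Tnfaip2, a TNF-induced gene, was almost equal in the 3 libraries at 68.9, 71.9 and 72 FPKM. Interferon-stimulated genes were lower, and of 16 with a row 15 of 16 were at or above 1 FPKM, 4 at or above 10 and 1 at or above 100, with a median of 5.26 FPKM. Ifitm3, which blocks virus entry at endosomes, stood at 305, 242 and 54.01 FPKM and Bst2, which tethers virus particles, at 44.4, 38.4 and 22.8. Irf7, the amplifier of type I interferon, stood at 17.5, 15.4 and 30.6 FPKM. The inducible Ifit1 stood at 0.263, 0.790 and 3.60 FPKM and Ifit2 at 0.267, 0.267 and 3.32, both more than 4-fold higher in replicate 3 than in either other library, with means of 0.526 and 0.267 without it.

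Genes of class I and of class II antigen presentation both ranged widely. Of 13 class I genes with a row, 11 of 13 were at or above 1 FPKM, 9 at or above 10 and 3 at or above 100, with a median of 19.8 FPKM. The class I genes H2-Q7 and Nlrc5 had means below 1 FPKM. B2m, the invariant light chain, stood at 423, 399.9 and 179 FPKM and Calr, the chaperone calreticulin, at 174, 156 and 178. H2-D1, a heavy chain, stood at 202, 182 and 65.3 FPKM and H2-K1 at 19.6, 17.6 and 22.3, but the class I heavy chain genes are near copies of each other and their reads may be split. Calr was close across libraries and B2m and H2-D1 lowest in replicate 3. Of 6 class II genes with a row, 5 of 6 were at or above 1 FPKM, 4 at or above 10 and 2 at or above 100, with a median of 25.9 FPKM. Ctss, the protease that trims the invariant chain, stood at 522, 581 and 538 FPKM and Cd74, the invariant chain, at 415, 394 and 294. H2-Ab1, a class II beta chain, stood at 24.1, 18.2 and 9.08 FPKM, and Ciita, the class II transactivator, at 0.524, 0.520 and 0.544. Ciita was below 1 FPKM in all 3 libraries, while Cd74 and Ctss exceeded 250 in each.

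Checkpoint ligands were present, with PD-L1 well above PD-L2. Of 16 genes with a row, of 23, 14 of 16 were at or above 1 FPKM, 7 at or above 10 and 2 at or above 100, with a median of 8.12 FPKM. Cd274 (ENSMUSG00000016496, chr19:29367455-29388095, plus strand), which encodes PD-L1, ranked 220 at 59.2, 74.3 and 121 FPKM, a mean of 84.7 ± 31.95. Cd274 was lowest in replicate 1 and highest in replicate 3, with rank 327 and a mean of 66.8 without the latter. Pdcd1lg2, which encodes PD-L2, ranked 2901 at 6.86, 6.57 and 5.42 FPKM. Pdcd1, which encodes their receptor PD-1, stood at 0.286, 0.217 and 0.180 FPKM. The lowest value of Cd274 was thus above the highest of Pdcd1lg2, and Pdcd1 was below 1 FPKM in every library.

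The signal-regulatory pair was also present. Sirpa, the inhibitory receptor that restrains phagocytosis, stood at 119, 135 and 142 FPKM and Cd47, its ligand, at 54.8, 55.2 and 85.5. Lgals3, a galectin that binds inhibitory receptors of T cells and has many other roles in macrophages, was the highest of the list at 908, 724 and 207 FPKM, and Lgals9, a ligand of TIM-3, stood at 38.9, 38.4 and 35.7. Lgals3 was lowest in replicate 3, Cd47 highest there, and Sirpa and Lgals9 were close in all 3. Havcr2, which encodes TIM-3, stood at 4.31, 5.35 and 9.93 FPKM, and Entpd1, the ectoenzyme CD39 that degrades extracellular ATP, at 7.21, 7.24 and 14.7. Ido1, the tryptophan-degrading enzyme, stood at 0.0796, 0.0287 and 0.225 FPKM, below 1 in every library. Of 9 costimulatory ligands 6 had a row, with a median of 5.42 FPKM. That was below the 8.12 of the checkpoint list and above the 2.67 of all protein-coding genes. Tnfsf14 alone of the 6 had a mean of at least 10 FPKM, though not in every library, against 19.1% of all protein-coding genes. Cd80 stood at 5.97, 7.08 and 8.21 FPKM and Cd86 at 3.70, 4.97 and 15.96, the pair of ligands that costimulate T cells through CD28. The mean of Cd86, 8.21, was 4.33 without replicate 3. Cd40, which receives help from T cells, was below 1 FPKM in every library at 0.487, 0.570 and 0.279.

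**Figure D5:**
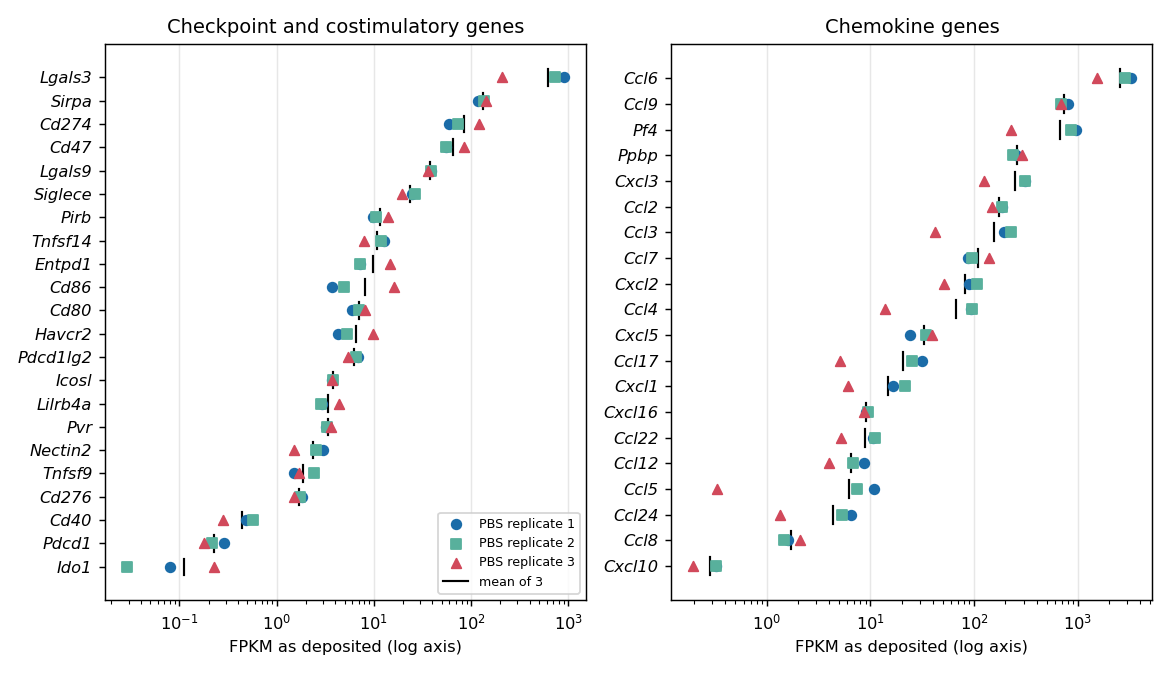
FPKM on a log axis of checkpoint and costimulatory genes (left) and of chemokine genes (right) with a row, ordered by mean. Symbols are the 3 PBS libraries and black bars are means. Cd274 lies between 59.2 and 121 FPKM, above Pdcd1lg2 at 5.42 to 6.86, and replicate 3 lies far to the left for Ccl5, Ccl4, Ccl3, Ccl17 and Pf4.

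All metabolic lists had medians above that of all protein-coding genes. Of 17 iron and antioxidant genes with a row, 16 of 17 were at or above 1 FPKM, 13 at or above 10 and 6 at or above 100, with a median of 30.3 FPKM. After the ferritins, Gpx1, a glutathione peroxidase, stood at 429, 383 and 234 FPKM, and Prdx5, a peroxiredoxin, at 234, 194 and 65.8. Both were lowest in replicate 3. The iron exporter Slc40a1, ferroportin, stood at 0.539, 0.525 and 1.03 FPKM, and the iron importer Tfrc, the transferrin receptor, at 2.96, 3.95 and 10.5, a mean of 5.79 that was 3.45 without replicate 3. Both transporters were thus far below the storage proteins in every library.

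Lysosomal genes had a median of 99.9 FPKM, with 21 of 22 at or above 10 and 11 at or above 100. Ctsb, cathepsin B, stood at 382, 415 and 552 FPKM, Gpnmb, a glycoprotein of macrophage lysosomes, at 358, 385 and 567 and Lamp1, a lysosomal membrane protein, at 298, 304 and 391. All 3 were highest in replicate 3. The summed FPKM of the list was 8222, 8301 and 8229, nearly equal in the 3 libraries. The sum hides shifts in both directions, with 14 genes higher and 8 lower in replicate 3 and a median log2 difference of 0.41. All protein-coding FPKM summed to 153093, 143972 and 121917 in replicates 1, 2 and 3. One subunit of the proton pump, Atp6v0c, was low at 2.09, 1.57 and 0.589 FPKM, while its processed pseudogene Atp6v0c-ps2 held 636, 628 and 64.2 FPKM, so the reads of the pair cannot be told apart here. Phagocyte oxidase genes, which make superoxide, were led by Cyba, the small membrane subunit, at 802, 686 and 118 FPKM. Its partner Cybb, the catalytic subunit, stood at 30.3, 48.5 and 151 FPKM, a mean of 76.7 that was 39.4 without replicate 3. Cyba was lowest and Cybb highest in replicate 3, while their proteins are known to form one complex.

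Glycolysis genes were high, and of 20 with a row 20 of 20 were at or above 1 FPKM, 14 at or above 10 and 7 at or above 100, with a median of 29.2 FPKM. Aldoa, an aldolase, stood at 469, 437 and 207 FPKM, Ldha, which makes lactate, at 288, 243 and 170.1 and Pkm, pyruvate kinase, at 241, 207 and 159. These were lowest in replicate 3, whereas Pgk1, phosphoglycerate kinase, was close at 189, 183 and 208 FPKM. Slc2a1, the glucose transporter GLUT1, stood at 49.2, 47.6 and 38.1 FPKM and Hk3, the hexokinase of myeloid cells, at 36.5, 34.3 and 27.8. Gapdh, named after its values were seen, stood at only 4.93, 15.6 and 0.543 FPKM, and since it has very many processed copies its level here is uncertain. TCA cycle genes were lower, with a median of 23.6 FPKM and 0 at or above 100 among 12. Idh1, isocitrate dehydrogenase, stood at 36.99, 35.03 and 63.6 FPKM and Acod1, which makes itaconate in activated macrophages, at 16.6, 27.2 and 26.5. Acod1 was lowest in replicate 1 and Idh1 highest in replicate 3.

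Amino acid genes followed Arg1. Of 19 with a row, 16 of 19 were at or above 1 FPKM, 13 at or above 10 and 1 at or above 100, with a median of 21.01 FPKM. Slc7a2, the arginine transporter of macrophages, stood at 35.1, 51.6 and 65.5 FPKM, and Slc3a2, the heavy chain of several amino acid transporters, at 101, 102 and 28.7. Slc7a5, its light chain for large neutral amino acids, stood at 54.3, 55.6 and 29.2 FPKM. Slc3a2 and Slc7a5 were lowest in replicate 3 and Slc7a2 highest. Arg2, the mitochondrial arginase, was steady at 35.4, 37.7 and 39.2 FPKM, more than 10-fold below Arg1 in each library. Of 23 lipid genes with a row, 12 were at or above 10 FPKM. Plin2, which coats lipid droplets, stood at 194, 189 and 222 FPKM and Lipa, the lysosomal acid lipase, at 57.3, 64.97 and 151. Abca1, the cholesterol exporter, stood at 15.8, 23.9 and 67.4 FPKM, a mean of 35.7 that was 19.9 without replicate 3. Plin2 was close across libraries, and Lipa and Abca1 were highest in replicate 3.

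Respiratory chain genes encoded in the nucleus had a median of 23.7 FPKM over 15. Atp5a1, a subunit of ATP synthase, was close at 109, 98.9 and 98.5 FPKM, while Cox8a, a small subunit of cytochrome c oxidase, stood at 185, 135 and 21.4. Of the 13 genes encoded in mitochondria, mt-Co1 was highest at 1468, 1169 and 1747 FPKM and mt-Cytb, cytochrome b, stood at 364, 275 and 115. The neighbours mt-Co2 and mt-Co3, subunits of the same oxidase as mt-Co1, stood at 20.7, 15.5 and 1.76 and 9.16, 7.49 and 9.80 FPKM, and near-identical nuclear copies of mitochondrial genes make these levels uncertain. Replicate 3 was lower for the list by a median log2 difference of -1.04, but higher for mt-Co1.

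Cell cycle genes lay near the level of the table as a whole, whose median was 2.67 FPKM. Of 18 cell cycle genes with a row, 18 of 18 were at or above 1 FPKM, 3 at or above 10 and 0 at or above 100, with a median of 3.75 FPKM. Mki67, a marker of cycling cells, ranked 3502 at 2.37, 3.88 and 8.31 FPKM, with a mean of 3.12 without replicate 3. Cdk1, the kinase that drives mitosis, ranked 5610 at 2.62, 2.12 and 1.74 FPKM. Pcna, the replication clamp, stood at 20.1, 18.8 and 26.99 FPKM and Cdkn1a, the CDK inhibitor p21, was the highest of the list at 82.3, 69.3 and 29.1. Mki67 was highest and Cdk1 and Cdkn1a lowest in replicate 3. Of 11 CDK genes with a row, all were at or above 1 FPKM and 1 at or above 10, with a median of 2.87. Cdk4, which acts with D cyclins in G1, was that gene at 27.7, 22.6 and 11.9 FPKM. Cdk6, its relative, stood at 3.62, 4.33 and 10.2 FPKM, a mean of 6.04 that was 3.97 without replicate 3. The transcriptional kinases Cdk7 and Cdk12 stood at 2.02, 1.98 and 2.85 and at 1.70, 1.99 and 2.97 FPKM.

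Survival was represented by Mcl1 and Bcl2a1d. Mcl1, a short-lived protein that guards myeloid cells from apoptosis, ranked 176 at 95.05, 97.2 and 125 FPKM. Bcl2a1d, one of several near-identical A1 copies whose reads may be split, stood at 88.7, 84.2 and 68.5 FPKM. Bax, an executioner of mitochondrial death, stood at 40.8, 33 and 8.17 FPKM, while Bcl2 itself stood at 0.800, 0.931 and 1.38. Mcl1 differed by less than 1.5-fold between libraries, Bax was lowest in replicate 3, and the mean of Bcl2 was just above 1 FPKM. Of 12 BCL2 family genes with a row, 12 were at or above 1 FPKM and 6 at or above 10. Myc, the growth regulator, ranked 1699 at 16.3, 14.2 and 4.89 FPKM, lowest in replicate 3.

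Agreement of the 3 libraries differed by gene. Among the 200 highest genes Arpc2, a subunit of the actin nucleator ARP2/3, was the steadiest at 116, 116 and 116 FPKM, a coefficient of variation of 0.336%. Srgn, the core protein of secretory granules, stood at 139.8, 137 and 136 FPKM, Hilpda, a lipid droplet protein, at 109, 105 and 106 and Rab7, a GTPase of late endosomes, at 192, 186 and 193. The widest were Cebpb, Rpl41 and Rps15 (ribosomal proteins), Tspo (a mitochondrial outer membrane protein) and Rplp1, all lowest in replicate 3. Tspo, for one, stood at 162, 138 and 10.3 FPKM. Of the 190 genes at or above 100 FPKM, 65 had a coefficient of variation under 20% and 46 over 50%, with a median of 28.8%, which was 8.44% over replicates 1 and 2.

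The genes of replicate 3 farthest below the other 2 libraries, among those with a mean of at least 20 FPKM, were Scand1, Tmem160, Ptms, Cebpb, Rpl41 and Ppp1r14b. Scand1, a SCAN domain protein with GC 68.4% and a length of 759 bases, stood at 90.7, 84.1 and 0.250 FPKM, a log2 difference of -6.14, and rested on 6 reads in replicate 3. Farthest above were Tlr8, Vcan, Ahnak, Tlr13, Cybb and Cbl. Vcan, a large proteoglycan of monocytes, with GC 43.7% and a length of 14462 bases, stood at 7.51, 10.6 and 46.3 FPKM, a log2 difference of 2.25 and a mean of 21.5 that was 9.08 without replicate 3. Ahnak, a giant scaffold protein, stood at 12.1, 16.3 and 65.6 FPKM and Cbl, a ubiquitin ligase, at 11.3, 15.2 and 52.6, with means of 14.2 and 13.2 without replicate 3. In the lists above, the ribosomal proteins had a median log2 difference of -1.17 (median GC 51.3%, median length 2272 bases) and the pattern recognition and Fc receptors of 0.65 (median GC 49.2%, median length 3478 bases). Their part in these differences was not tested.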

How the data were processed

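Total RNA (1 ug) of 12 libraries was prepared with an Illumina TruSeq kit, per the labels' protocols, and 3 PBS libraries were analysed. The authors deposited 1 table of 11669 genes with a value per library, gene length and biotype. Its header names no unit, and the deposited values were read as FPKM. Values times gene length fall on whole multiples of a unit that differs by library, for 100% of values at a tolerance of 0.05. Any count divided by length and scaled per library would do so, and the name FPKM is therefore an assumption. The units of the PBS libraries correspond to library sizes of 34.4 M, 38.1 M and 31.6 M, 2.34, 2.36 and 2.19 times the reads recovered. In the NP-D@M and NP-D@MP libraries this ratio lay between 0.468 and 0.553. A scaling was thus applied whose method is not given in the sources used here. Bowtie 0.12.2 and mm8 are named, with no role, in the submitters' processing notes. Identifiers matched GENCODE M21 on GRCm38 for 10176 of 10185 protein-coding genes, with equal coordinates for 9742, so positions are given on GRCm38. GC is that of the longest transcript and is missing for 9 genes.

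Protein-coding genes were ranked by mean value, counted by level and compared between libraries on log2(FPKM + 1). With 1 group there was no test. Reads of replicates 1 and 2 differed by more than counting error (reduced chi-square 22.8), so both were kept. Libraries made from the same RNA can also differ in this way, so the value does not show that they are separate samples. The named genes are the 20 highest, up to 4 highest members of each of 41 lists with defining members below 1 FPKM, 17 fixed genes, the 6 genes farthest above and below in each library at a mean of at least 20, and the 5 smallest and 5 largest coefficients of variation among the 200 highest. Other list members and genes named in the text were chosen after their values were seen. Members and lists were chosen with earlier results of these data known. Alternatives were equal sums, equal medians, medians in place of means, a pseudocount of 0.1, other levels and filters, and leaving out each library. The procedure was tested on simulated reads with counting error and planted changes in 1 library. The simulated reads had no trend along GC or gene length, so the test does not cover such trends. Floors cover counting error only, because PCR copies of a molecule cannot be told from separate molecules. Python 3.11.15 with numpy 2.4.6, pandas 2.3.3, scipy 1.17.1 and matplotlib 3.10.9 was used. A few genes chosen by this rule are not reported here.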

Additional observations from a re-analysis of the deposited data

How the results depend on the processing

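Equal sums, equal medians and leaving out each library kept the counts of genes at a mean of 1, 10, 100 and 1000 FPKM within 1.5-fold. Requiring the level in every library left 118 genes at 100 FPKM in place of 190. The mean Pearson's r over pairs was 0.923, and ranged from 0.874 to 0.995 when 1 library was left out, the highest being without PBS replicate 3. The counts of genes more than 2-fold from the other libraries moved most. With equal sums they were 99 above and 49 below for replicate 1 (158 and 13 as deposited), 1 below for replicate 2 (0 as deposited) and 138 above for replicate 3 (79 as deposited). With genes at a mean of at least 5 in place of 20 they were 325 above and 61 below for replicate 1, 139 above for replicate 2 (74 at 20) and 315 above and 757 below for replicate 3 (288 below at 20), where the larger number of genes entering is part of the alternative itself. The cause of the other moves was not tested. Levels were checked for a set of 626 genes. It took in the genes named by rule, all list members analysed and all genes at or above 100 FPKM. It also took in the highest transcription factor genes and the highest genes of each family described below. Of the 626, 1 moved by more than its SD with equal sums, Arpc2, and 0 with equal medians. Leaving out 1 of 3 libraries or taking the median cannot move a mean by its SD, so this measure says nothing of those alternatives. Without PBS replicate 3, 20 of the 413 genes of this set with a mean of at least 10 FPKM moved over 1.5-fold, most of all Tlr8, to 0.325 of its mean. Leaving out 1 of 3 libraries cannot raise a mean more than 1.5-fold, so only genes higher in replicate 3 could count. Genes far lower in replicate 3 could not, and Scand1 rose most, to 1.498 times its mean. Of 41 lists the count at or above 10 FPKM moved more than 1.5-fold for 5 when the level was required in every library and for 2 without PBS replicate 3. No paired analysis was possible because 1 group was described and its replicate numbers come from library names that run through the series without repeating. At the depth of these libraries a listed 0 allows up to 3 reads.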

Other observations

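Gene families outside the lists, chosen after their values were seen, add matrix and granule products to the picture. Of 12 matrix metalloproteinase genes with a row, 3 were at or above 100 FPKM, Mmp8, Mmp9 and Mmp12. Mmp12, the macrophage elastase, stood at 253, 291 and 529 FPKM in replicates 1, 2 and 3, highest in the last. Of 16 serpin genes 1 was at or above 100 FPKM, Serpinb2, an inhibitor of plasminogen activation in macrophages, at 309.6, 381 and 482. Of 8 S100 genes 7 were at or above 10 FPKM, and of 9 annexin genes 7. Of 16 genes named Clec, Clec4n, which encodes the fungal receptor Dectin-2, was highest at 438, 419.9 and 479.6 FPKM. Clec7a, the receptor Dectin-1, carries the biotype polymorphic pseudogene and so stood outside the ranking, at 60.6, 73.3 and 123 FPKM. Of 176 solute carrier genes 32 were at or above 10 FPKM and 0 at or above 100. Among all protein-coding genes, 19.1% were at or above 10 FPKM and 1.87% at or above 100. The share of solute carriers at or above 10 FPKM was thus near that of the table.

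Outside the protein-coding genes, Gm23935, annotated as a miRNA gene of 57 bases, stood at 3706 and 4039.8 FPKM in replicates 1 and 2 and at 46.6 in replicate 3. The immunoglobulin constant genes Igkc and Ighm, products of B lineage cells, stood at 2.19, 2.02 and 3.45 FPKM and at 2.17, 1.93 and 2.25 FPKM, while the B cell gene Ms4a1 was below 1 in every library.

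The deviation of PBS replicate 3 from its group mates had a counterpart in another group. Across 7242 protein-coding genes, the log2 differences of NP@M replicate 2 from the mean of its group mates correlated with those of PBS replicate 3 at r = 0.898, as a description across genes. The SD of these differences was 0.91 for PBS replicate 3 and 0.73 for NP@M replicate 2, and their Spearman correlation with transcript GC was -0.627 and -0.538. In the 6 libraries of the NP-D@M and NP-D@MP groups, r with PBS replicate 3 lay between -0.48 and 0.45. What the PBS and the NP@M library share beyond this was not tested.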
